A study of Rattus norvegicus with 15 samples.

Results

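The 47 probes described here carry the gene symbols of the enzymes that use glutathione or thioredoxin to remove peroxides and electrophiles, or that oxidise or reduce aldehydes. They were chosen by symbol from the platform's annotation. The rule uses no measured values, but earlier results of these data were known when it was set. They are 47 of the 5088 probes on the arrays, with 1 probe for each of 47 genes. They comprise 10 cytosolic glutathione transferases, 1 microsomal glutathione transferase, 5 glutathione peroxidases, 4 genes of glutathione synthesis and reduction, 1 catalase, 5 peroxiredoxins, 5 genes of the thioredoxin system, 8 aldehyde dehydrogenases and 8 aldo-keto reductases.

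Glutathione is a small thiol made from glutamate, cysteine and glycine in consecutive ligase steps. Peroxidases use it to reduce hydrogen peroxide and lipid peroxides, transferases couple it to electrophiles, and glutathione reductase restores it. Thioredoxin serves the peroxiredoxins in the same way and is itself reduced by thioredoxin reductase, while aldehyde dehydrogenases and aldo-keto reductases clear the reactive aldehydes that form when lipids are oxidised. In dorsal root ganglia (DRG) both the sensory neurons and the glia around them hold these systems.

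The cells were dissociated from lumbar (L4 and L5) ganglia of juvenile rats, whose exact age is not given, and were plated on poly-L-lysine or myelin, with the substrate of each array not given. In the dbcAMP group the medium held 1.5 mM dibutyryl cAMP, a membrane-permeable analog of the second messenger cAMP, and in the control group it held nothing further. Times were 1, 3, 6, 12 and 18 h, with 3 arrays at each, although the treatment text of the labels lists 0 h where the sample labels give 1 h. Every array was labelled the same way, with Cy5 for dbcAMP and Cy3 for control, and no dyes were swapped. The deposited ratio was read as Cy5 over Cy3 from the order of the channels in the labels, so a positive log2 ratio means a higher level in treated cells. The labels do not tell separate cultures from repeat hybridisations, so the p-values measure the spread between these arrays, which may be technical. The cultures were mixed, and in such bulk RNA fewer cells of a type and less RNA per cell cannot be told apart.

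The number of arrays limits the precision. The array medians lay between ratios of 0.997 and 1.015, and the log2 ratios of every pair of arrays correlated above 0 over all probes (lowest r = 0.115). The standard deviation of the log2 ratios over all probes lay between 0.357 and 0.434 on 9 arrays and between 0.627 and 0.703 on the other 6, of which 1 was a 6 h array (array 3), 2 were 12 h arrays (arrays 1 and 2) and the remaining 3 made up the 18 h group. Markers of the cell types a ganglion could hold were at hand for 6 lists, and at 1 h none of their probes passed the test. At 18 h, 1 of 13 probes of sensory neuron markers was higher and 1 lower, 3 of 16 Schwann cell and satellite glia probes were higher and 4 lower, 1 of 10 fibroblast probes was higher and 3 lower, 1 of 6 macrophage probes was lower, and none of 5 endothelial and 4 erythrocyte probes passed. The ratios give no absolute level, so the presence of each cell type was not read from them, and the part of these markers in the results was not tested.

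Few members passed the test at any time. The test was limma's moderated comparison of the mean log2 ratio with 0, and a probe was called at an adjusted p under 0.05. At 1 h, 0 of 45 members tested were higher (0.732% of all probes) and 2 were lower (1.6% of all probes). At 3 h, 0 of 44 were higher (0.931% of all probes) and 1 was lower (1.94% of all probes). At 6 h, 0 of 45 were higher (1.84% of all probes) and 1 was lower (2.35% of all probes). At 12 h, 1 of 45 was higher (3.81% of all probes) and 2 were lower (4.77% of all probes).

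At 18 h the arrays as a whole held many more calls, and the share of called members was lower. Of 44 members tested, 2 were higher and 1 was lower, which is 6.82% called, while 10.6% of all probes were higher and 11.3% lower, which is 22.0% called. Without the adjustment the shares were near each other, with p under 0.05 in 15 of 44 members (34.1%) and in 34.6% of all probes. Of these 15 members 11 were higher, among them Prdx1, Prdx2, Prdx3, Prdx5, Txnrd1, Gpx1, Gclc, Gsta4, Mgst1, Akr1c3 and Aldh3a2, and 4 were lower, namely Txnip, Gstp1, Gstm1 and Aldh1l1. The median log2 ratio was 0.18 over the members and 0.01 over all probes. All 3 arrays were above 0 for 17 of 44 members (38.6%), against 25.1% of all probes, and below 0 for 9 (20.5%), against 24.1%.

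**Figure D1:**
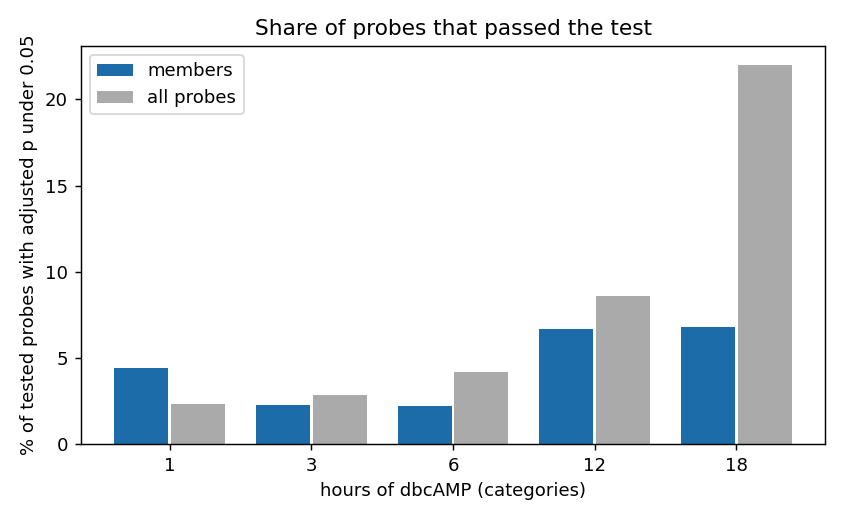
Share of tested probes with an adjusted p under 0.05 (limma, y axis, percent) at each time of dbcAMP (x axis, hours, as categories), for the members (blue, 44 or 45 tested) and all probes (grey, 5006 to 5058 tested). At 18 h 6.82% of members and 22.0% of all probes were called.

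The change over time was tested in the same fit. Between 18 h and 1 h, 0 of 44 members passed limma's test, where 1.18% of all probes were higher and 1.56% lower at 18 h. A p under 0.05 before adjustment was reached by 7 members (15.9%, against 16.7% of all probes), and the smallest adjusted p was 0.147, of Gstm5. The F test over the 5 times called 0 of 44 members and 1.87% of all probes, with a smallest adjusted p of 0.101, of Mgst1. Before adjustment 5 members had p under 0.05 (11.4%, against 15% of all probes). The test used in the study's methods, with no shared spread, also called 0 members in both comparisons, against 0.761% and 2.07% of all probes. Before adjustment it gave 8 members at p under 0.05 between 18 h and 1 h and 7 among the times. The share of all probes at that level is not given here. Since no dyes were swapped, a constant dye bias of a probe would cancel in these differences and not in the single times.

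**Figure D2:**
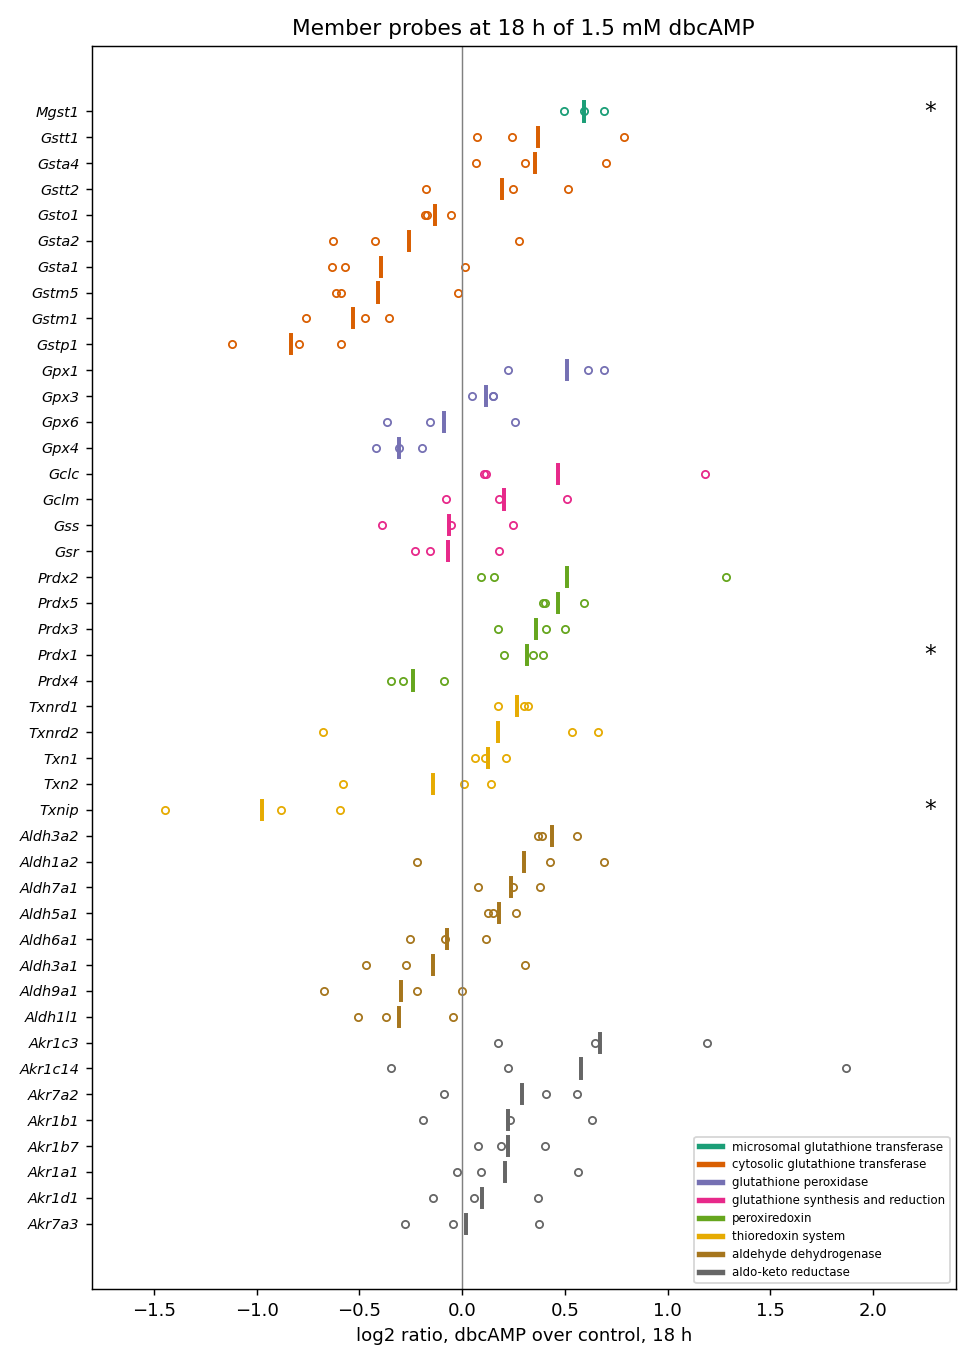
Log2 ratio of dbcAMP over control at 18 h (x axis) for the 44 members tested (y axis), coloured by family and sorted within it, with the 3 arrays as open circles, their mean as a bar and an asterisk at an adjusted p under 0.05. Mgst1 at 0.59, Prdx1 at 0.32 and Txnip at -0.97 carry the asterisk. Means are above 0 in 4 of 5 peroxiredoxins, 8 of 8 aldo-keto reductases and 2580 of all 5006 probes tested.

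In the thioredoxin system the member that fell was Txnip (probe 50B11), which codes for thioredoxin-interacting protein, an inhibitor that binds reduced thioredoxin and also limits glucose uptake. Its log2 ratios were -0.34, 0.07 and 0.16 at 1 h, -0.21, -0.34 and -0.18 at 3 h, and 0.07, -0.65 and 0.95 at 6 h. The arrays of these first 9 hybridisations fell on both sides of 0, and the highest was array 3 at 6 h. At 12 h they were -1.12, -1.16 and -0.72, and at 18 h -0.88, -1.44 and -0.59, so all 6 late arrays were below 0 and only array 2 at 6 h came within their range. The mean was -1.0 ± 0.25 (SD, n = 3) at 12 h and -0.97 ± 0.43 (SD, n = 3) at 18 h, or 0.50 and 0.51 of the control level, with limma adjusted p of 0.0187 and 0.0091. Without array 2 at 18 h the mean was -0.74 and the adjusted p 0.0821, and at 12 h the adjusted p was 0.111 without array 1 and 0.0998 without array 2. Centred on the probes of its own plate, Txnip stood at -0.82 at 18 h with an adjusted p of 0.0203. The difference between 18 h and 1 h was -0.94 (95% interval -1.65 to -0.22) and did not pass, with an adjusted p of 0.164.

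The rest of the thioredoxin system did not pass the test. Cytosolic thioredoxin, Txn1, was at 0.13 at 18 h (95% interval -0.11 to 0.37), and mitochondrial thioredoxin, Txn2, at -0.14 (-0.48 to 0.19). The reductase of the cytosol, Txnrd1, gave 0.32, 0.18 and 0.30 at 18 h, a mean of 0.27 with an adjusted p of 0.0695, which was 0.0464 after centring on plate medians. The mitochondrial reductase Txnrd2 spread over -0.68, 0.54 and 0.66, so that array 1 lay apart from the other arrays and the interval of the mean ran from -0.30 to 0.65.

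Of the peroxiredoxins, thiol peroxidases that thioredoxin reduces, Prdx1 (probe 29H03), a cytosolic member, rose. Its log2 ratios at 18 h were 0.39, 0.35 and 0.21, a mean of 0.32 ± 0.10 (SD, n = 3) or 1.24 times control, with a limma adjusted p of 0.0344. At 12 h they were 0.26, 0.17 and 0.45, with a mean of 0.30 and an adjusted p of 0.0828, and at 1, 3 and 6 h the 9 arrays lay between -0.14 and 0.13. The 6 late arrays were thus above every earlier array, while the difference between 18 h and 1 h, 0.30 (95% interval -0.0013 to 0.60), had an adjusted p of 0.302. The call at 18 h was narrow, and the adjusted p was 0.0503 to 0.15 when any of the 3 arrays of 18 h was left out and 0.0625 after centring on plate medians.

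Prdx2, Prdx3 and Prdx5 had larger means than Prdx1 at 18 h and missed the threshold. Prdx2, the peroxiredoxin abundant in red cells and neurons, gave 0.15, 0.09 and 1.28, a mean of 0.51 with an adjusted p of 0.0731, and without array 3 the mean was 0.12. Prdx3, the mitochondrial member, gave 0.17, 0.41 and 0.50, a mean of 0.36 (adjusted p = 0.0883). Prdx5, found in mitochondria, peroxisomes and cytosol, gave 0.40, 0.40 and 0.59, a mean of 0.46 (adjusted p = 0.0656). All 3 arrays were above 0 in Prdx2, Prdx3 and Prdx5, but array 3 alone carried the mean of Prdx2. Prdx4, the member of the endoplasmic reticulum, was the only peroxiredoxin below 0 at 18 h, with -0.29, -0.09 and -0.35 and a 95% interval of -0.49 to 0.01. The family's median was -0.08, -0.02, 0.09, 0.18 and 0.36 at 1, 3, 6, 12 and 18 h.

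**Figure D3:**
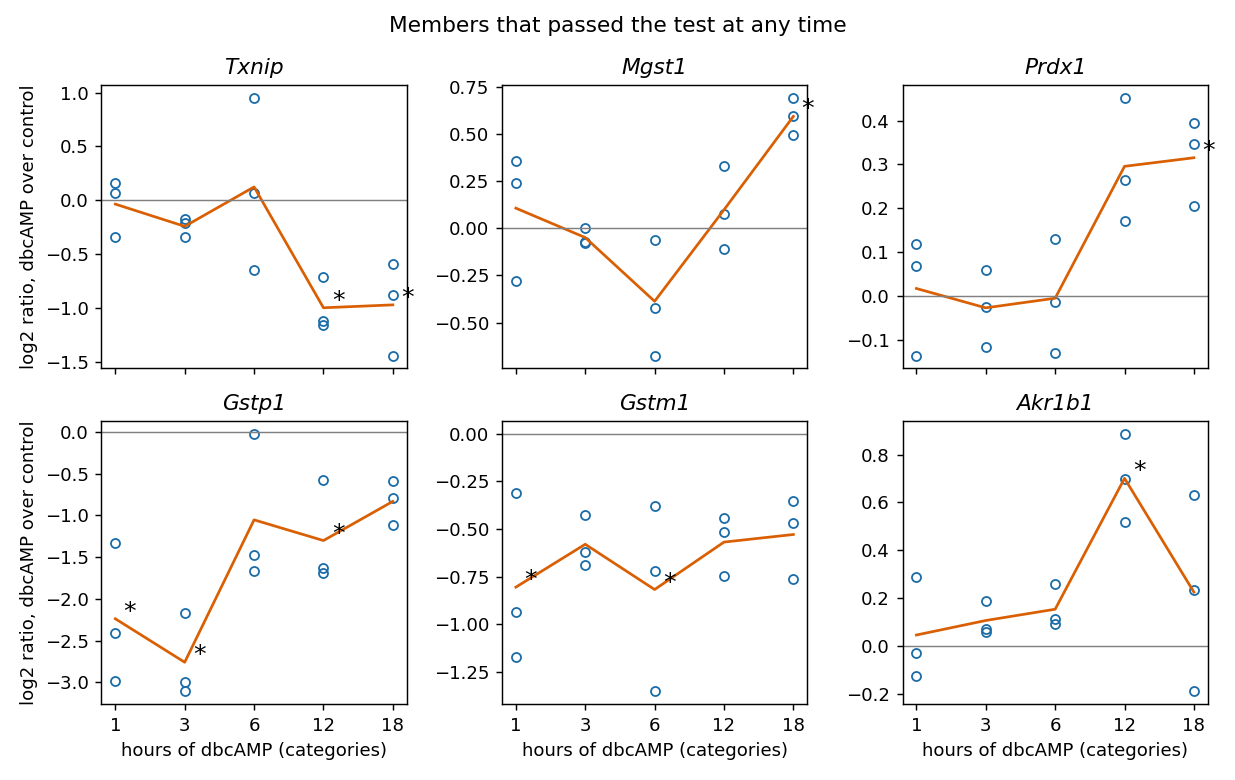
Log2 ratio of dbcAMP over control (y axis, scaled separately in each panel) at each time (x axis, hours, as categories) for the 6 members called at any time, with single arrays as circles, the mean of the arrays as a line and an asterisk at an adjusted p under 0.05. Txnip is near -1.0 at 12 and 18 h, Mgst1 and Prdx1 are highest at 18 h, and Gstp1 is lowest at 3 h, at -2.76.

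No gene of glutathione synthesis and reduction passed the test at any time. Gclc codes for the catalytic subunit of glutamate-cysteine ligase, the rate-limiting enzyme of glutathione synthesis, and gave 1.18, 0.12 and 0.11 at 18 h. Array 1 alone set its mean of 0.47 (adjusted p = 0.099), which was 0.11 without that array. The regulatory subunit of the ligase, Gclm, was at 0.20 at 18 h (95% interval -0.12 to 0.53), and glutathione synthetase, Gss, at -0.06 (-0.53 to 0.40). Glutathione reductase, Gsr, gave -0.16, -0.23 and 0.18 at 18 h, a mean of -0.07 (-0.35 to 0.21), whose sign turned without array 2.

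Among the glutathione peroxidases Gpx1, the abundant selenium enzyme of cytosol and mitochondria, came nearest to the threshold. It gave 0.50, 0.60 and 0.09 at 1 h, 0.53, 0.30 and 0.71 at 3 h, and -0.02, -0.09 and -1.17 at 6 h. It then gave 0.84, 0.82 and 0.38 at 12 h and 0.22, 0.69 and 0.61 at 18 h, so that the 12 arrays outside 6 h were all above 0 and those of 6 h below. Its 12 h mean was 0.68 (limma adjusted p = 0.0506), its 18 h mean was 0.51 ± 0.25 (SD, n = 3, adjusted p = 0.0834), and the F test among the times gave an adjusted p of 0.165. Gpx4, which reduces lipid peroxides within membranes, gave -0.42, -0.20 and -0.31 at 18 h, a mean of -0.31 with an interval from -1.02 to 0.41. Its value of -2.36 on array 3 at 6 h enters the spread behind that interval. The plasma enzyme Gpx3 was at 0.12 at 18 h (-0.15 to 0.38) and Gpx6 at -0.09 (-0.46 to 0.28). Gpx5 had a ratio on 6 arrays and catalase, Cat, which breaks down hydrogen peroxide in peroxisomes, on 7, and neither could be tested at 18 h.

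The microsomal glutathione transferase Mgst1 (probe 16H11), a membrane enzyme with transferase and peroxidase activity, had the smallest adjusted p of all members at 18 h. Its log2 ratios there were 0.59, 0.49 and 0.69, a mean of 0.59 ± 0.10 (SD, n = 3) or 1.51 times control, with a limma adjusted p of 0.00803. They were 0.24, 0.36 and -0.28 at 1 h, 0.00, -0.07 and -0.08 at 3 h, -0.42, -0.07 and -0.67 at 6 h, and 0.08, -0.11 and 0.33 at 12 h. The 3 arrays of 18 h lay above all 12 earlier ones, and those of 6 h were all below 0. The call held when each array of 18 h was left out in turn (adjusted p 0.0227 to 0.0482). It also held after centring on plate medians (0.46, adjusted p = 0.0244). It was lost when the arrays were scaled to a common spread (0.39, adjusted p = 0.12) and with array weights (adjusted p = 0.0637). It was also lost with the 18 h arrays alone (adjusted p = 0.0889) and by the methods' test (adjusted p = 0.183). The difference between 18 h and 1 h was 0.49 (95% interval 0.06 to 0.91), with an adjusted p of 0.23. At 6 h the median of its plate, plate 16, was -0.24, and its own mean there was -0.39 and, centred on the plate, -0.18.

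The cytosolic transferases held the largest ratios of all members, in Gstp1 (probe 43G02), the pi class enzyme, which also binds and restrains the stress kinase JNK. Its log2 ratios were -1.33, -2.99 and -2.40 at 1 h and -2.18, -3.11 and -3.00 at 3 h. The means of -2.24 ± 0.84 and -2.76 ± 0.51 (SD, n = 3 each), or 0.212 and 0.148 of the control level, had limma adjusted p of 0.00422 and 0.000469 and ranked 5 from the lowest of 5055 probes at 1 h and 4 from the lowest of 5050 at 3 h. Later values were nearer to 0, with -1.48, -1.66 and -0.02 at 6 h, -1.69, -0.58 and -1.64 at 12 h and -0.79, -0.59 and -1.12 at 18 h. All 15 arrays were below 0. The 12 h mean passed (adjusted p = 0.034), those of 6 h (0.12) and 18 h (0.102) did not, and the difference between 18 h and 1 h, 1.41 (95% interval 0.36 to 2.46), had an adjusted p of 0.153. At 1 h the call was lost without array 2 (-1.87, adjusted p = 0.0638) or array 3 (-2.16, adjusted p = 0.0559), and at 3 h it held without any of the 3 arrays. The 12 h call was lost without array 1 (-1.11, adjusted p = 0.195) or array 3 (-1.135, adjusted p = 0.118). It was also lost after scaling to a common spread (adjusted p = 0.134) and with array weights (adjusted p = 0.0545).

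Gstm1 (probe 43H11), a mu class transferase, was also below 0 on all 15 arrays. It gave -0.94, -0.31 and -1.17 at 1 h and -0.38, -0.72 and -1.35 at 6 h, with means of -0.80 ± 0.44 and -0.82 ± 0.49 (SD, n = 3 each) and limma adjusted p of 0.032 and 0.0207. At 3, 12 and 18 h the means were -0.58, -0.57 and -0.53 with adjusted p of 0.141, 0.0706 and 0.0512. Without array 1 or array 3 at 1 h the adjusted p was 0.243 or 0.352, and without array 2 or array 3 at 6 h it was 0.0665 or 0.204. Gstm5 (probe 43H12), of the same class, gave -0.23, 1.02 and 0.35 at 1 h and -0.61, -0.02 and -0.59 at 18 h, so that it changed sides, and its difference of -0.79 (95% interval -1.37 to -0.21) did not pass.

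These 3 transferase probes shared a plate of the probe set, read from the probe names, and many probes of that plate lay low. The plate was not shifted evenly, as at 1 h probe 43C01 lay at 0.21 and probe 43F07 at -1.58. The median of its 96 probes was -0.13, -0.14, -0.42, -0.33 and -0.51 at 1, 3, 6, 12 and 18 h, and 20, 15, 21, 32 and 41 of the 96 were called lower, which at 18 h is 42.7%. Gstp1 was the lowest probe of the plate at 1 and 3 h and ranked 35 from the lowest at 18 h. Gstm1 ranked 21, 23 and 25 from the lowest of the 96 at 1, 3 and 6 h, so it lay among other low probes of the plate. Centring subtracts the plate's median, which was small at 1 and 3 h, so it moved the low probes little at those times. Centred on the plate, Gstp1 gave means of -2.09, -2.61, -0.93 and -0.30 at 1, 3, 12 and 18 h, with adjusted p of 0.0193, 0.00301, 0.207 and 0.662. Gstm1 gave -0.65, -0.35 and 0.00 at 1, 6 and 18 h, with adjusted p of 0.0489, 0.267 and 0.987. Given its rank, the value at 1 h does not set Gstm1 apart from the low probes of the plate. The low values of Gstp1 at 1 and 3 h were thus present within the plate, and those of Gstm1 at 18 h were not. The part of the plate in the remaining values was not tested.

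**Figure D4:**
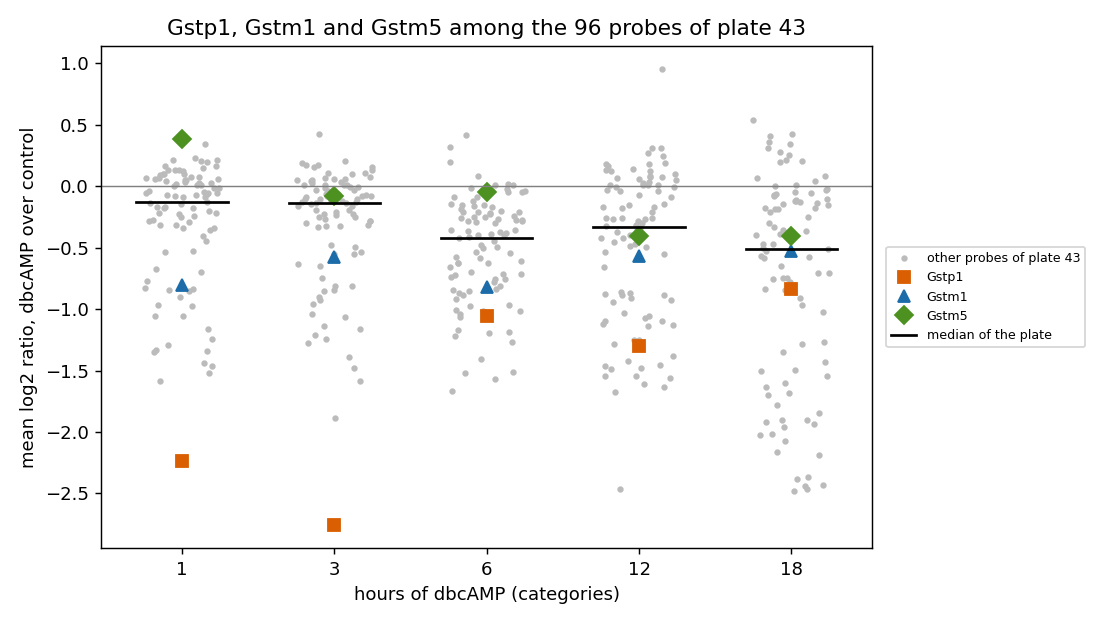
Mean log2 ratio of dbcAMP over control (y axis) at each time (x axis, hours, as categories) for Gstp1 (squares), Gstm1 (triangles), Gstm5 (diamonds) and the other probes of plate 43 (grey dots), with the plate's median as a black bar. Gstp1 lies below every other probe at 1 and 3 h and within the cloud at 18 h, while the median goes down to -0.51.

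The other cytosolic transferases did not pass the test at any time. At 18 h the alpha class members Gsta1, Gsta2 and Gsta4 were at -0.40, -0.26 and 0.36. Gsta4, whose preferred substrate is the lipid aldehyde 4-hydroxynonenal, gave 0.70, 0.07 and 0.30, with an adjusted p of 0.0594. The theta class members Gstt1 and Gstt2 were at 0.37 (95% interval -0.08 to 0.81) and 0.19 (-0.22 to 0.61), and the omega class member Gsto1 at -0.13 (-0.36 to 0.09). Gstk1, of the kappa class, had a ratio on 3 arrays and was tested at no time.

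Aldehyde dehydrogenases split evenly at 18 h, with 4 of 8 means above 0, a median of 0.05 and none called. The highest was Aldh3a2, the fatty aldehyde dehydrogenase of the endoplasmic reticulum, with 0.39, 0.56 and 0.37 and a mean of 0.44 (adjusted p = 0.131). The lowest was Aldh1l1, the formyltetrahydrofolate dehydrogenase known as an astrocyte marker in brain, with -0.51, -0.04 and -0.37 and a mean of -0.31 (adjusted p = 0.0787, and 0.0291 after centring on plate medians). Aldh3a2 was also the family's highest member at the 4 earlier times, at 0.18, 0.29, 0.43 and 0.42. Between these 2 lay Aldh1a2, which makes retinoic acid, at 0.30 (95% interval -0.02 to 0.62), and Aldh9a1, at -0.30 (-0.60 to 0.01).

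All 8 aldo-keto reductases had means above 0 at 18 h, as did 2580 of all 5006 probes tested. Their median was 0.22, and none passed the test. The member that rose was Akr1b1 (probe 2B09), aldose reductase, which turns glucose into sorbitol, and it did so at 12 h. It gave 0.70, 0.89 and 0.52 there, a mean of 0.70 ± 0.18 (SD, n = 3) with a limma adjusted p of 0.00753, against -0.13 to 0.29 over the 9 arrays of 1, 3 and 6 h. At 18 h it gave -0.19, 0.63 and 0.23, a mean of 0.22 (95% interval -0.07 to 0.52), with array 1 below and array 3 within the range of the early arrays. The adjusted p at 12 h was 0.0521 without array 1 and 0.0579 without array 2.

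The 2 highest aldo-keto reductases at 18 h varied widely between arrays. Akr1c3, a hydroxysteroid dehydrogenase in human, gave 0.65, 1.19 and 0.17, a mean of 0.67 (adjusted p = 0.091). Akr1c14, the rat 3-alpha-hydroxysteroid dehydrogenase, gave -0.35, 0.22 and 1.87, a mean of 0.58 whose interval ran from -0.10 to 1.26. Akr7a2, an aflatoxin aldehyde reductase, was above 0 on 13 of 15 arrays, with means of 0.44, 0.35, 0.42, 0.30 and 0.29 over the 5 times and adjusted p of 0.152 to 0.387. At 3 h it was called with the arrays of that time alone (6.99% of all probes called), after scaling (8.61%) and with array weights (11.2%). Akr7a2 was also called at 1 h after scaling (6.33%) and with array weights (7.42%), and at 6 h with array weights (5.56%). Its close relative Akr7a3 was the lowest of the family at 18 h, at 0.02, with a sign that turned without array 1. Members of 1 family can share sequence, and how far their probes tell them apart is not known from the sources used here.

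Promoter windows, 250 bases before to 50 after the start, were at hand from RefSeq (GRCr8) for 40 of the 47 genes, in 43 windows. The full cAMP response element, TGACGTCA, was searched on both strands and found in 0 of the 43, against 1.83% of 33469 windows. The core of the antioxidant response element, TGACNNNGC, which Nrf2 binds, was found in 11 of the 43 windows, against 12.1% of all windows. These belonged to 11 of the 40 genes. The 11 were Gclm, Txnrd1, Prdx1, Prdx4, Prdx5, Gsta1, Gsta2, Gstm5, Gstp1, Aldh1a2 and Aldh9a1, of which Prdx1 was higher at 18 h and Gstp1 lower at 1, 3 and 12 h, while Mgst1 had no match. The windows of the 2 members that rose at 18 h and of Gstp1 are shown, with a match in capitals, since the same letters stand before a gene that rose and a gene that fell.
Mgst1, chr4:172760680-172760979, + strand: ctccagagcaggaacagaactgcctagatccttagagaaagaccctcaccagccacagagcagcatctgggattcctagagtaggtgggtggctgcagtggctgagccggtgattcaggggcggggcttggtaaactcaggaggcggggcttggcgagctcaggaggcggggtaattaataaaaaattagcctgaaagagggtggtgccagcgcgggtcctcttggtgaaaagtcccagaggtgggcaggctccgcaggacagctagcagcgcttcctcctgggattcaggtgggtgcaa
Prdx1, chr5:135383656-135383955, + strand: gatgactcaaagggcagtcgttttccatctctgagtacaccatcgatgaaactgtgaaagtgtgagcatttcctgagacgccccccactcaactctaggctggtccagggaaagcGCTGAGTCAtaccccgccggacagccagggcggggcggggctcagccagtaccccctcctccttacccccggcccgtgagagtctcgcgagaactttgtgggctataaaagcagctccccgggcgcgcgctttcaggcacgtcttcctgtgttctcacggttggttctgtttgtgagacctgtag
Gstp1, chr1:210769656-210769955, - strand: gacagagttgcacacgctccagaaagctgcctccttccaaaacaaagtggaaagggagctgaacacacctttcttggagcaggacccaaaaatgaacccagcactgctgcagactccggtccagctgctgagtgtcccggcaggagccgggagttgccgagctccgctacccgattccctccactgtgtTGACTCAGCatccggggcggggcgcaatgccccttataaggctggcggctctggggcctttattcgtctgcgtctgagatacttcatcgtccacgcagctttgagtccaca
The match begins 135 bases before the start in Prdx1 and 61 before it in Gstp1, on opposite strands relative to the gene. A match is a description of letters, and no binding was measured.

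Beside the members, 45 probes of 43 other redox genes, of 79 listed, were read from the same fit. The list was drawn up with earlier results of these data known, so its shares of calls are not independent of them. At 18 h, 12 were higher, 3 of them probes of Mt1, and 4 lower, or 35.6%, where 10.6% of all probes were higher and 11.3% lower. Their median was 0.16, against 0.01 over all probes. The 6 genes with the smallest p were Hmox1, heme oxygenase, at 1.46 (limma adjusted p = 5.59e-06), Sod3, the extracellular superoxide dismutase, at 0.97, Mt1, a metallothionein, at 1.10, 0.74 and 1.27 on its 3 probes, Cbr1, carbonyl reductase, at 0.90, Fth1, ferritin heavy chain, at 0.57, and Nqo1, a quinone reductase, at 0.56. The transcript of Nrf2 itself, Nfe2l2, was at -0.06 and that of its inhibitor Keap1 at -0.06, and neither passed. The 4 lower genes were Adh4, Idh1, Ugt1a1 and Ephx2. Earlier, 0 were higher and 1 lower at 1 h and at 3 h, or 2.22% called at each, against 2.33% and 2.87% of all probes. At 6 h, 4 were higher and 0 lower (8.89%, against 4.19% of all probes), and at 12 h 7 were higher and 0 lower (15.6%, against 8.58%). Between 18 h and 1 h, 7 were higher and 0 lower at 18 h (15.6%, against 2.74%).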

How the data were processed

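Two-colour spotted oligonucleotide arrays compared RNA of rat DRG cells treated with dbcAMP with RNA of control cells, on 15 arrays. The authors deposited 1 linear ratio for each probe on each array. How they corrected background and normalized is not given in the sources used here. Of 5088 probes, 28 to 105 had no ratio on an array. The log2 of the ratio was taken, without further centring. A gene was named only for the 4423 probes with 1 symbol in the platform annotation, which can be old. All 47 member identifiers matched the GRCr8 gene table.

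Tests used limma 3.58.1 in R 4.3.3 on all probes with a ratio on at least 2 of 3 arrays, with 1 mean per time, a shared spread over 15 arrays and eBayes, two-sided, with Benjamini-Hochberg adjustment over all probes tested and a threshold of 0.05. Errors are the SD over arrays, and intervals are 95% intervals from the fit. The fit was tested on simulated data. Promoters were searched in Python 3.11.15, and plots used matplotlib 3.10.9.

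The members, lists and tests were chosen with earlier results of these data known. By the naming rule, members called at 18 h, in the difference or in the F test were to be given on every array, and those called at other times and the highest and lowest of each family by their means. Values on every array of further members, and the genes near the threshold, were added after their values were seen. The other redox genes named were the 6 with the smallest p, and Nfe2l2, Keap1 and the 4 lower genes were added. Alternatives were centring on array or plate medians, scaling arrays to equal spread, fitting each time by itself, the methods' test, array weights, the replicate number as a block, a ratio on all 15 arrays and leaving out single arrays, where each time was refitted without 1 of its own 3 arrays and with the other 14 arrays kept. For the 18 h to 1 h difference and the F test, all 5 arrays of a replicate number were left out together. The methods' test was Student's test, or an F test with no shared spread over the 5 times, each with the Benjamini-Hochberg adjustment added here. A fit without 3 arrays of wide spread was added after seeing the data.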

Additional observations from a re-analysis of the deposited data

Results flagged for a closer look

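In 7 members all arrays of 1 time lay above 0 and all arrays of another below it, in 12 pairs of times in all. The share of all probes that meet this rule is not given here, so the count is not read as particular to the members. At a single time, 17.5% to 25.1% of all probes had all 3 arrays on a given side of 0. Gsto1 differed by -0.25 between 12 h and 1 h and by -0.19 between 18 h and 1 h, and Gpx4 by -0.38 between 18 h and 1 h. For these, limma's test of 18 h against 1 h gave adjusted p of 0.59 for Gsto1 and 0.752 for Gpx4. Gpx1 differed by -0.83 between 6 h and 1 h, by -0.94 between 6 h and 3 h, by 1.10 between 12 h and 6 h and by 0.93 between 18 h and 6 h. Gss differed by -0.93 between 6 h and 1 h, and Gsr by -0.33 between 6 h and 1 h and by -0.22 between 6 h and 3 h. Mgst1 differed by 0.98 and Gpx3 by 0.26 between 18 h and 6 h. These pairs of times were not tested singly, and the F test over all 5 times called none of the 7, with adjusted p of 0.101 for Mgst1, 0.165 for Gpx1, 0.404 for Gss, 0.607 for Gpx3, 0.614 for Gsr, 0.717 for Gpx4 and 0.734 for Gsto1. In 9 of the 12 pairs 6 h was a member, and array 3 at 6 h was among the arrays of wide spread.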

How the results depend on the processing

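With 3 arrays per time, counts of called members moved with the estimate of spread. The percent in brackets is the share of all probes called in the same setting, which moved as well. At 1 h the 2 calls became 1 with the arrays of that time alone (2.77%) and 0 by the methods' test (0%). Leaving out single arrays gave 0 to 1 (0.479% to 0.874%). At 3 h the 1 call (2.87%) became 4 after scaling to a common spread (8.61%) and 4 with the arrays of the time alone (6.99%). It became 4 with array weights (11.2%) and 0 by the methods' test (0%). At 6 h the 1 call became 0 after centring on plate medians (3.22%) and 0 with the arrays of the time alone (0.198%). It became 0 by the methods' test (0%), 2 with array weights (5.56%) and 0 to 1 without single arrays (2.05% to 3%). At 12 h the 3 calls became 0 with the arrays of the time alone (0.0997%) and 0 by the methods' test (0%). Without single arrays there were 0 to 3 (2.86% to 11%). At 18 h the 3 calls became 0 after scaling (8.71%), 0 with the arrays of the time alone (3.66%) and 0 by the methods' test (0.02%). They became 1, Txnip, with array weights (13.4%) and 2 to 5 without single arrays (16.3% to 18.5%). Without the 3 wide arrays of 6 and 12 h, an alternative chosen after seeing the data, which lowers the shared spread, there were 10 (29.8%). They were Txnip, Mgst1, Prdx1, Prdx3, Prdx5, Gpx1, Gpx4, Gstp1, Gstm1 and Akr1c3, and 12 h could not be fitted. The 16 calls of other redox genes at 18 h became 9 after scaling (8.71%), 2 with the arrays of the time alone (3.66%) and 0 by the methods' test (0.02%). Scaling added 1 member, Gstp1, to the 0 of the F test (0.947%). The counts of the methods' test are after the adjustment added here. Before adjustment it gave 3, 7, 5, 8 and 8 members at p under 0.05 at 1, 3, 6, 12 and 18 h. The share of all probes at that level is not given here. For the 23 named values, 217 repeats kept their direction and side of the threshold, 46 lost the threshold, 8 gained it and 2 turned sign. Only values called in the main fit could lose the threshold, so all 46 losses fell on them. Values not called in the main fit also count in the 217, so that number does not measure how stable the calls were. The sign turned in Akr7a3 at 18 h, with a range of -0.16 to 0.16, and in Gsr, with -0.19 to 0.011, when single arrays were left out. The cause of these changes was not tested.

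The replicate numbers did not pair the arrays. After each time's mean was subtracted, the deviations of the 30 same-numbered pairs correlated at -0.05 to 0.07, and with the replicate number as a block the 18 h count of members stayed at 3 and no call changed.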
